A study of Danio rerio with 6 samples.

Results

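The interferon regulatory factors (IRFs) are a family of transcription factors, and 9 of their genes are described here in zebrafish embryos that received a NOD1 expression plasmid. The members were the wells of a real-time PCR array whose symbol was IRF1, IRF2, IRF3, IRF4a, IRF4b, IRF7, IRF8, IRF9 or IRF10, which made 9 of the 326 gene wells on a plate. They were chosen by name, with earlier results of these data known. In Danio rerio embryos, ptGFP1, an empty plasmid, was microinjected in the control group and ptGFP1-NOD1 in the NOD1 group, and RNA was taken at 24 hours post fertilization, with 3 plates per group and 1 plate for each biological replicate. Each RNA came from a pool of whole embryos, 150 to 200 per group on average, so all cell types were measured together. The promoter of the plasmid, the species of the NOD1 insert and the share of cells that carried it are not given in the sources used here, nor is whether replicates came from separate spawnings, so the p-values measure the spread between these pools.

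IRF proteins share a DNA-binding domain that recognises the promoters of interferon genes and of interferon-stimulated genes. In mammals, IRF3 and IRF7 are phosphorylated by the kinase TBK1 after a virus or nucleic acid sensor has been engaged, enter the nucleus and switch on type I interferon genes. IRF9 joins STAT2 in the complex that answers interferon, IRF1 is an activator of interferon-stimulated genes and IRF2 was first known as its antagonist. IRF4 and IRF8 are a related pair that act in lymphoid and myeloid cells. In zebrafish, IRF8 is needed for the macrophage fate, and IRF10, absent from human and mouse, has been described as a negative regulator of the interferon response.

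The quantity reported is a relative level, the mean threshold cycle (Ct) of ACTB, GAPDH and Tuba1 on a plate minus the Ct of the gene, with values above 35 cycles set to 35. It is a log2-like scale on which a higher value means more transcript and 1 cycle is about 2-fold if the product doubles in each cycle. On a plate, 314 to 321 gene wells lay under 35 cycles, and 0 of the 54 IRF readings carried an instrument flag. The reading of the nod1 well, the check of the injection, was 8.59 ± 0.42 (SE, n = 3 per group) higher in NOD1 embryos. It was at least 7.71 above the control mean on each NOD1 plate. Whether plasmid carried over into the RNA added to this reading was not tested. The mean Ct of the reference genes was itself 0.655 cycles later in NOD1 plates (two-sided exact permutation p = 0.1, the lowest possible with 3 plates against 3). The RTC wells, the array's reverse transcription control, were 0.32 cycles later in NOD1 plates (exact permutation p = 0.2). The PPC wells, its PCR control, were 0.099 cycles later (exact permutation p = 0.6). 18S rRNA, not used as a reference, averaged 7.21 cycles in the control group and 9.82 cycles in the NOD1 group, a level lower by -1.95 ± 0.15 (SE) relative to the reference genes (limma adjusted p = 6.82e-04). The part of these shifts in the IRF results was not tested, and the IRF differences are also given with other scalings. No run day held plates of both groups, so run day and group cannot be told apart. The NOD1 plates shared a run day, while control replicate 1 was run on another day than control replicates 2 and 3. All 9 IRF wells sat in plate row I, where the 15 other tested genes had a median difference of 0.66. Row medians ran from -0.57 in row A to 1.46 in row J, with 1.41, 1.36 and 1.09 in rows K, L and M. Among the pathway genes and blood cell markers named below, CSF1R, EPOR, STAT2 and JAK1 sat in row A. MX sat in row J, and RIG-I, LGP2 and MAVS in row M. Since rows hold related genes, position and gene family cannot be told apart.

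In control embryos the IRF genes covered a span of 8.49 cycles. IRF9 had the highest level, -7.78 ± 0.177 (SD, n = 3), which was above 61.0% of the gene wells of the plate. It was followed by IRF2 at -8.46 ± 0.113, IRF10 at -9.73 ± 0.163, IRF1 at -10.03 ± 0.160 and IRF8 at -10.39 ± 0.179. IRF3 and IRF7, the factors best known for starting interferon transcription, were lower, at -12.08 ± 0.380 and -12.31 ± 0.307. The IRF4 pair lay at the bottom, with IRF4b at -14.03 ± 1.26 and IRF4a at -16.27 ± 1.06. The control values of IRF10 and IRF1, of IRF3 and IRF7, and of IRF4b and IRF4a overlapped across plates, and the other neighbours in the order did not. Within each control plate IRF10 was above IRF1 and IRF3 above IRF7, while IRF4b was below IRF4a on control replicate 3. Because the efficiency of each assay is unknown, the order is one of assay readings and only roughly one of transcript abundance. In NOD1 embryos IRF2 had the highest mean. Its values overlapped those of IRF9 across plates but were above them within each plate. IRF8 lay above IRF1 and IRF4b above IRF7 without overlap.

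**Figure D1:**
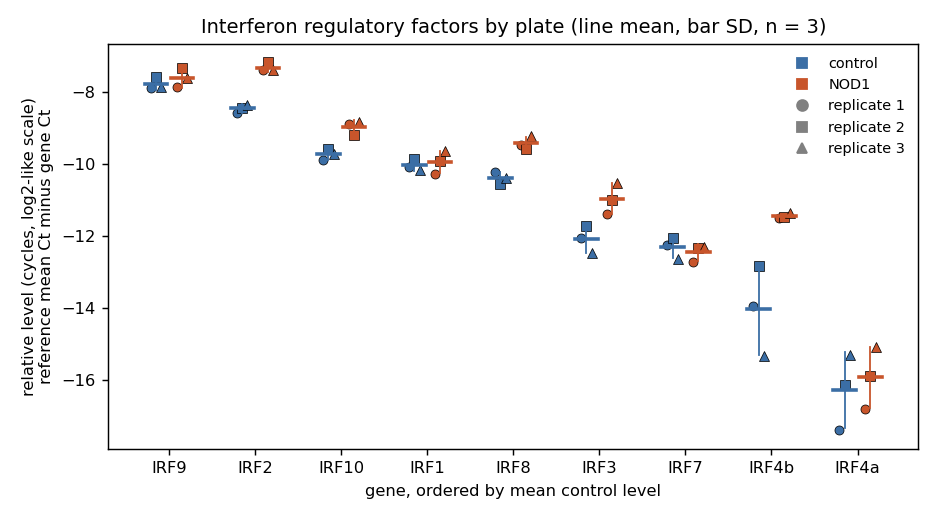
Relative level of each IRF gene on every plate (reference mean Ct minus gene Ct, in cycles), with control plates in blue and NOD1 plates in orange. Lines are means and bars SDs of 3 plates, and genes are ordered by their control mean. NOD1 points all lie above control points for IRF2, IRF10, IRF8, IRF3 and IRF4b, with IRF3 turning in sign under quantile and cyclic loess scaling, while IRF4b was widely spread in control plates and tight in NOD1 plates.

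Of the 9 members, 8 were detected well enough to be tested, and 5 of them (IRF2, IRF3, IRF4b, IRF8 and IRF10) were higher in NOD1 embryos at a limma adjusted p under 0.05. None was lower, at the adjusted threshold or at an unadjusted p under 0.05, and IRF1, IRF7 and IRF9 did not pass. On the plate as a whole 118 of 319 tested genes, 37%, were called higher and 49, 15.4%, lower. The same 5 IRF genes had NOD1 values all above their control values, as did 42.3% of the tested genes, while 0 IRF genes and 21.6% of the tested genes had NOD1 values all below. The median difference was 0.86 over the 8 tested IRF genes and 0.32 over all 319 tested genes. Relative to that plate median, IRF4b stood 2.27 above, IRF2 0.82, IRF3 0.80, IRF8 0.65 and IRF10 0.44. IRF9, IRF1 and IRF7 stood at -0.14, -0.23 and -0.46 against it.

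**Figure D2:**
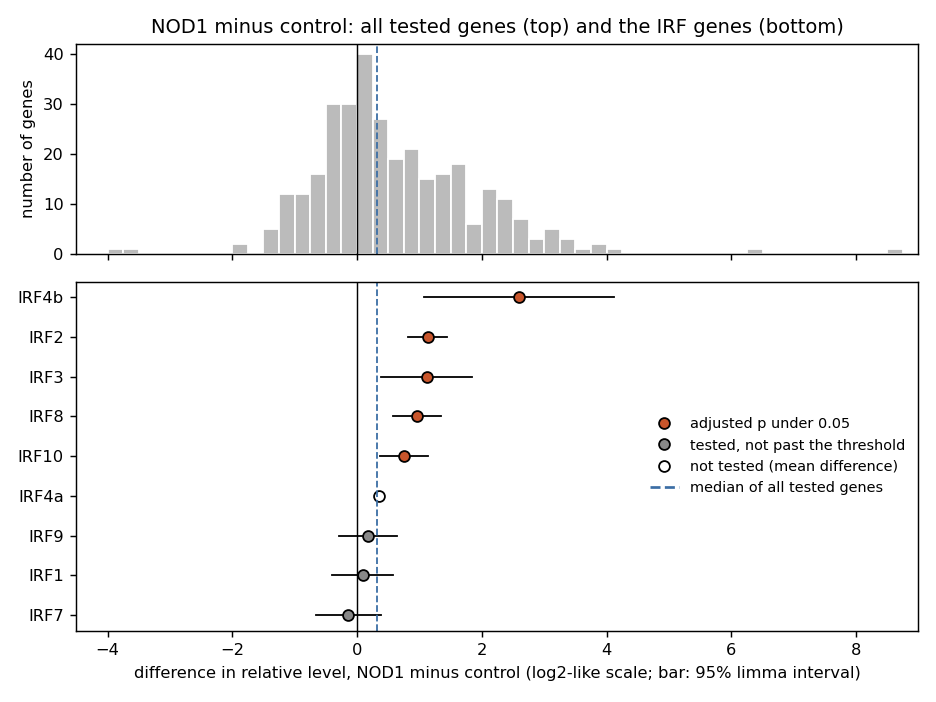
Differences in relative level, NOD1 minus control, for all 319 tested genes (top, number of genes per bin) and for the IRF genes (bottom, points with 95% limma intervals). The intervals of IRF4b, IRF2, IRF3, IRF8 and IRF10 lie above 0, those of IRF9, IRF1 and IRF7 span it, and IRF4a, not tested, is shown by its mean difference alone; IRF3 changes sign under quantile and cyclic loess scaling. The dashed line marks the plate median of 0.32.

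IRF2 was higher in NOD1 embryos under every scaling tried and with any 1 plate left out. Its relative level was -8.58, -8.43 and -8.36 on the control plates and -7.40, -7.18 and -7.40 on the NOD1 plates. Every NOD1 plate was above every control plate, by more than the spread within either group. The difference was 1.13 ± 0.13 (SE; 95% interval 0.81 to 1.45; n = 3 per group), a 2.19-fold higher level, with a limma adjusted p of 0.00154. IRF2 was also detected earlier in raw cycles, by 0.477 on average with no overlap, although the reference genes were detected later. Leaving out 1 plate at a time gave 2.08-fold to 2.27-fold.

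IRF1, the activator that IRF2 was first known to oppose, did not differ beyond the spread between plates. Its level was -10.08, -9.86 and -10.17 in control and -10.27, -9.91 and -9.65 in NOD1 plates, with both the lowest and the highest value in the NOD1 group. The difference was 0.088 ± 0.20 (95% interval -0.39 to 0.57, limma adjusted p = 0.721), and its sign turned under 6 of the 10 other scalings.

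IRF3 was higher in NOD1 embryos on the reference gene scale, but its sign turned to -0.19 and -0.078 under quantile and cyclic loess scaling. Its level was -12.05, -11.71 and -12.47 in control plates and -11.38, -11.00 and -10.52 in NOD1 plates, so the groups were apart, by a margin that was narrow beside the spread of either. The difference was 1.11 ± 0.29 (95% interval 0.39 to 1.84), or 2.16-fold, with a limma adjusted p of 0.0223. Without control replicate 1, control replicate 3 or NOD1 replicate 2 the adjusted p was 0.0572, 0.0631 and 0.0627, past the threshold in none of these. In raw cycles the IRF3 groups overlapped, and the mean was 0.459 cycles earlier in NOD1 plates.

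IRF7, in mammals the factor that amplifies the interferon response, gave -12.23, -12.04 and -12.64 in control and -12.72, -12.32 and -12.31 in NOD1 plates. The groups overlapped. The difference was -0.14 ± 0.21 (95% interval -0.66 to 0.38, limma adjusted p = 0.582), positive with GAPDH alone or 18S rRNA added. Under 5 of the 11 scalings it was called lower, from -0.61 (global median) to -1.52 (cyclic loess). In raw cycles IRF7 was detected later in every NOD1 plate, by 0.796 on average, against 0.655 for the reference genes. Across plates, IRF3 and IRF7 thus had overlapping levels in control embryos and separate levels in NOD1 embryos. Within each plate of either group IRF3 was above IRF7.

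IRF4b had the largest difference of the family and also the widest control spread. Its Ct was 31.5, 30.6 and 32.8 on the control plates and 29.7, 29.9 and 29.6 on the NOD1 plates. The relative level was -13.93, -12.82 and -15.34 in control and -11.49, -11.46 and -11.36 in NOD1, with an SD of 1.26 against 0.0654. The NOD1 plates were nearly alike, and the lowest of them was above the highest control plate. They also shared a run day, which the control plates did not, so the SDs of the groups are not like for like. The part of run day in the spread was not tested. The difference was 2.59 ± 0.62 (95% interval 1.07 to 4.11), or 6.02-fold, with a limma adjusted p of 0.0160, which put it at percentile 92.8 of the tested genes. Its size depended on the control plates. Leaving out control replicate 3 gave 3.83-fold, and leaving out control replicate 2 gave 9.17-fold. Its call was lost without NOD1 replicate 1 (adjusted p = 0.0505) or NOD1 replicate 2 (0.0515).

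IRF4a was close to the detection limit. Its Ct was 35.3, 33.9 and 32.8 in control and 35.1, 34.3 and 33.3 in NOD1 plates, with 1 well of each group above 35 cycles, so it was left out of the fit. The mean relative level was -16.27 ± 1.06 in control and -15.92 ± 0.854 in NOD1 plates, and the groups overlapped. The mean difference was 0.35, and it was -0.21 without control replicate 1, 0.78 without NOD1 replicate 1 and 0.22 ± 0.45 without both plates. With no filter on low values the limma adjusted p was 0.673. Its SD within either group was thus larger than its mean difference between groups.

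IRF8, which directs macrophage development in zebrafish, was higher in NOD1 embryos. Its level was -10.21, -10.57 and -10.39 in control and -9.46, -9.57 and -9.23 in NOD1 plates, with a clear gap between the groups on this scale. The difference was 0.97 ± 0.16 (95% interval 0.58 to 1.35), or 1.95-fold, with a limma adjusted p of 0.00451, and the call was kept on leaving out any 1 plate. It was lost under 5 of the 11 scalings, where the difference went down to 0.080. In raw cycles the IRF8 groups overlapped, and the mean was 0.311 cycles earlier in NOD1 plates. Of the listed blood cell markers 3 had wells, and they did not move together. SPI1, the myeloid factor PU.1, was 0.81 ± 0.19 higher (limma adjusted p = 0.0146, lost without control replicate 3 at 0.0507 and under 4 scalings). CSF1R, the receptor of macrophages and pigment cells, was lower by -1.17 ± 0.16 (adjusted p = 0.00271) and EPOR, the erythropoietin receptor, by -1.01 ± 0.16 (adjusted p = 0.00411). Their summed level was 0.937% to 1.13% of the reference level in control plates and 0.850% to 1.12% in NOD1 plates, none being undetected on any plate. That sum mixes 1 higher and 2 lower markers of unknown assay efficiency, so it does not measure blood cell content. The part of these markers in the IRF8 result was not tested, and in whole embryos fewer cells of a type and less RNA per cell cannot be told apart.

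IRF10 was higher in NOD1 embryos by a smaller amount. Its level was -9.89, -9.57 and -9.71 in control and -8.89, -9.18 and -8.83 in NOD1 plates, without overlap. The difference was 0.76 ± 0.16 (95% interval 0.37 to 1.14), or 1.69-fold, with a limma adjusted p of 0.00969, and it was called on leaving out any 1 plate but lost under 5 of the 11 scalings. In raw cycles, by contrast, the IRF10 groups overlapped and the mean moved by only 0.103 cycles earlier.

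IRF9, the partner of STAT2, gave -7.89, -7.57 and -7.87 in control and -7.87, -7.32 and -7.61 in NOD1 plates, and the groups overlapped. Its difference was 0.18 ± 0.19 (95% interval -0.28 to 0.63, limma adjusted p = 0.441) and turned negative under 5 of the 10 other scalings. The member with the highest control level was thus among those that did not pass.

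The number of IRF genes called varied with the scaling. With B2M added or with ACTB, GAPDH or Tuba1 alone it stayed at 5 higher and 0 lower. The plate shares were 38.9% higher and 11.6% lower (B2M), 32% and 22.6% (ACTB), 39.8% and 8.15% (GAPDH) and 35.1% and 15.4% (Tuba1). With 18S rRNA added 7 IRF genes were higher and 0 lower, where 61.1% of the plate was higher and 5.64% lower. Measured against the mean of all genes on the plate, 2 were higher and 3 lower (plate background 23.8% and 43.9%), and against the plate median 2 and 1 (25.4% and 35.4%). Quantile scaling gave 1 higher and 2 lower (18.5% and 24.5%), cyclic loess 1 and 2 (20.7% and 22.6%) and raw Ct 2 and 3 (22.3% and 42%). IRF2 was called higher under all 11 scalings compared, with differences from 0.48 to 1.62. IRF4b was called under 9, with differences from 1.14 to 3.08, and was lost under quantile (adjusted p = 0.168) and cyclic loess scaling (0.176). IRF3, IRF8 and IRF10 were each called under 6 of the 11, namely those built on named reference genes, and IRF8 and IRF10 stayed positive under the other 5, down to 0.080 and 0.024. IRF7 was called lower under 5 scalings and higher under 0. IRF1 was called lower under 4 and IRF9 under 2, and both were called higher with 18S rRNA added, at 0.58 (adjusted p = 0.0275) and 0.66 (0.0123). Only quantile and cyclic loess scaling can change the order of the members, since the others move all genes of a plate together. Under both, IRF4b and IRF2 were still the highest 2 of the 8 tested members and IRF1 and IRF7 the lowest 2, while IRF3 moved from rank 3 to rank 6.

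**Figure D3:**
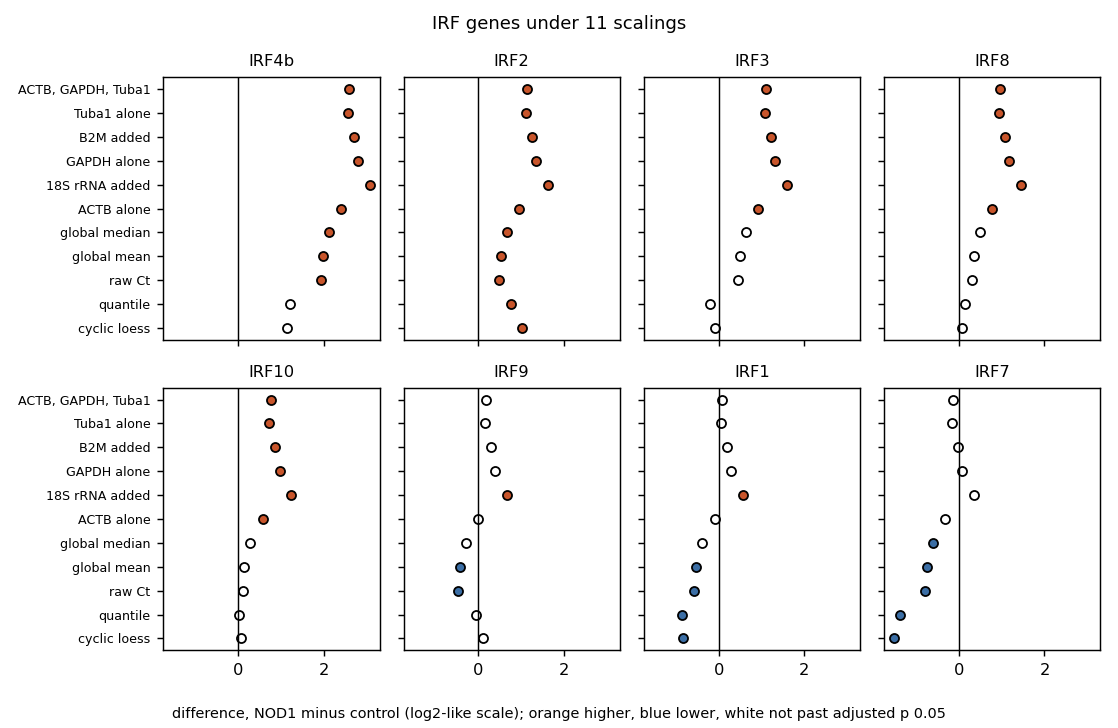
Difference of each tested IRF gene, NOD1 minus control on the log2-like scale, under the 11 scalings. Orange points passed an adjusted p of 0.05 as higher, blue points as lower and white points did not pass. IRF2 is orange in every row, IRF3, IRF8 and IRF10 only in the rows that use named reference genes (IRF3 is below 0 with quantile and cyclic loess), and IRF7, IRF1 and IRF9 cross 0.

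Differences between IRF genes on the same plate do not depend on the reference genes, so 5 pairs were compared in this way. Groups without overlap were common among such pairs, with 20 of all 36 member pairs and 19 of the 28 pairs of tested members. Within a plate IRF2 exceeded IRF1 by 1.50, 1.42 and 1.81 cycles in control and by 2.87, 2.73 and 2.25 in NOD1 embryos, without overlap. The gap widened by 1.04 ± 0.22 (SE; 95% interval 0.43 to 1.66; exact permutation p = 0.1, two-sided). IRF3 exceeded IRF7 by 0.186, 0.326 and 0.169 cycles in control and by 1.34, 1.32 and 1.79 in NOD1 embryos, which widened the gap by 1.25 ± 0.16 (95% interval 0.81 to 1.70, exact permutation p = 0.1). Both changes kept their sign with quantile scaling (1.62 and 1.18) and cyclic loess (1.85 and 1.44).

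Within the IRF4 and IRF8 branch the gaps were less certain. With IRF4a held at 35 cycles on 1 plate of each group, IRF4b exceeded IRF4a by 3.46, 3.31 and -0.052 cycles in control and by 5.30, 4.43 and 3.71 in NOD1 plates. The change was 2.24 ± 1.23 (95% interval -1.19 to 5.67, exact permutation p = 0.1), and 1.09 without control replicate 3. The separation came from that ceiling, since with the deposited Ct control replicate 1 gave 3.78, above NOD1 replicate 3 at 3.71, and the change was 2.17 with an exact permutation p of 0.2. IRF8 exceeded IRF4b by 3.72, 2.25 and 4.95 cycles in control and by 2.02, 1.89 and 2.14 in NOD1 plates, without overlap. That gap narrowed by 1.62 ± 0.78 (95% interval of the change -3.80 to 0.55, exact permutation p = 0.1), by 0.97 without control replicate 3, and by 1.06 under quantile and cyclic loess scaling alike. The gap between IRF8 and IRF4a changed by 0.61 ± 0.80 (95% interval -1.62 to 2.85, exact permutation p = 0.4), and the groups overlapped. After Benjamini-Hochberg adjustment over the 5 pairs the p was 0.125 for the first 4 and 0.4 for the last, and with 3 plates against 3 no pair could pass 0.05.

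**Figure D4:**
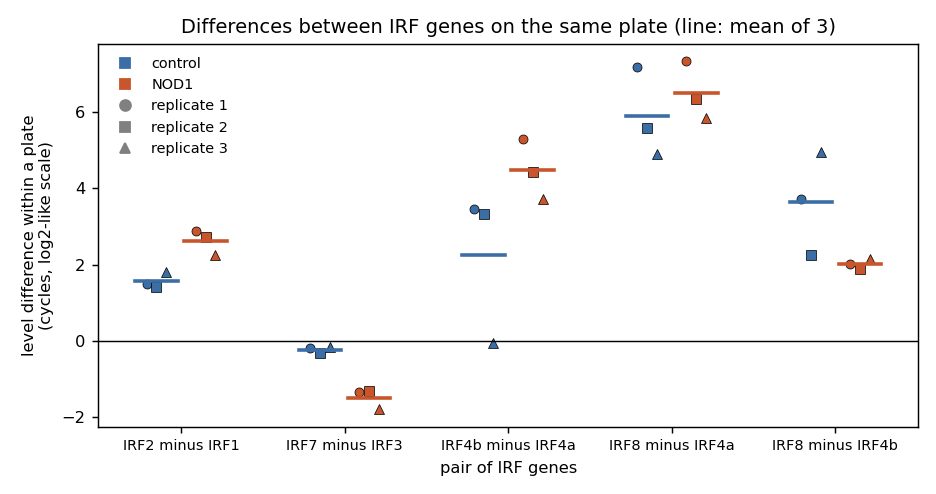
Within-plate difference in relative level between 2 IRF genes, in cycles, for control (blue) and NOD1 (orange) plates, with lines at the means of 3. The groups are apart for IRF2 minus IRF1, IRF7 minus IRF3 and IRF8 minus IRF4b, and overlap for IRF8 minus IRF4a. Over all 36 member pairs, 20 were apart, IRF4b and IRF4a among them, and the share over all pairs of plate genes was not computed. For IRF4b minus IRF4a the groups are apart only with IRF4a values above 35 cycles set to 35.

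The IRF genes were set beside 37 other genes of the interferon pathway on the plate. Of these, 22 were higher, 1 was lower and 14 did not pass, beside 37% higher and 15.4% lower among all tested genes, and the median difference was 1.18 against 0.32 for the plate. The counts by role that follow stand against the same plate shares. TICAM1 and TRIF, counted here as separate wells, are names of the same gene in RefSeq. Among the kinases and adaptors that act upstream of IRF3 and IRF7, 2 of 10 were higher and 1 lower, which for the higher calls is below the plate share of 37% and for the lower calls near 15.4%. TBK1, the kinase of IRF3, was 1.61 ± 0.18 higher (limma adjusted p = 0.00154) and MAVS, the adaptor of the RNA sensors, 1.18 ± 0.24 (0.00953), while the related kinase IKBKE was lower by -0.82 ± 0.22 (0.0225), a call lost on leaving out any 1 of the 3 control plates. The other 7, among them MYD88, TRAF6 and TRAF3, did not pass. MAVS was also lost against the plate mean and on raw Ct. The IKBKE call was lost with 18S rRNA added (limma adjusted p = 0.169) and with GAPDH alone (0.0905).

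Of the 9 RNA and DNA sensors, whose signals reach IRF3 and IRF7, 7 were higher, led by RIG-I at 2.32 ± 0.26, TLR8a at 2.22 ± 0.36 and LGP2 at 1.73 ± 0.20. Of the 6 interferons 5 were higher, and these included the type II interferon genes ifng1-1 and ifng1-2. IFNphi3 was 3.46 ± 0.63 higher, ifng1-1 3.22 ± 0.62 and IFNphi4 2.50 ± 0.33, and IFNphi1 gave 0.26 ± 0.80 and did not pass. Beside these interferon genes, the differences of IRF3, IRF7 and IRF9 were 1.11, -0.14 and 0.18 (IRF3 with its sign turned under quantile and cyclic loess scaling), and that of IRF4b was 2.59. The gaps between these genes and the IRF genes were not tested. LGP2 was lost under quantile scaling.

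Of the 8 receptors and relays that carry the interferon signal to IRF9, 5 were higher. STAT2, the direct partner of IRF9, was 1.59 ± 0.38 higher (limma adjusted p = 0.0158), lost without NOD1 replicate 2 at 0.0525. The receptor chain CRFB1 was 1.67 ± 0.33 higher, lost under 2 scalings, as was STAT2. JAK1 gave 4.24 ± 3.45 and did not pass, and its groups overlapped. Its difference rested on 1 control well above 35 cycles, with a control SD of 7.16 against 0.131 in NOD1 plates. Of the 4 interferon-induced genes 3 were higher, GBP1 by 3.29 ± 0.90, NLRC5 by 2.64 ± 0.25 and MX by 1.71 ± 0.32. MX was detected late, at a mean of 34.2 cycles in control and 33.1 in NOD1 plates. Its difference turned to below 0 under 2 scalings, quantile and cyclic loess, and its call was also lost on raw Ct. GBP1 lost its call under 2 scalings and when control replicate 2 or either of NOD1 replicates 1 and 2 was left out.

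**Figure D5:**
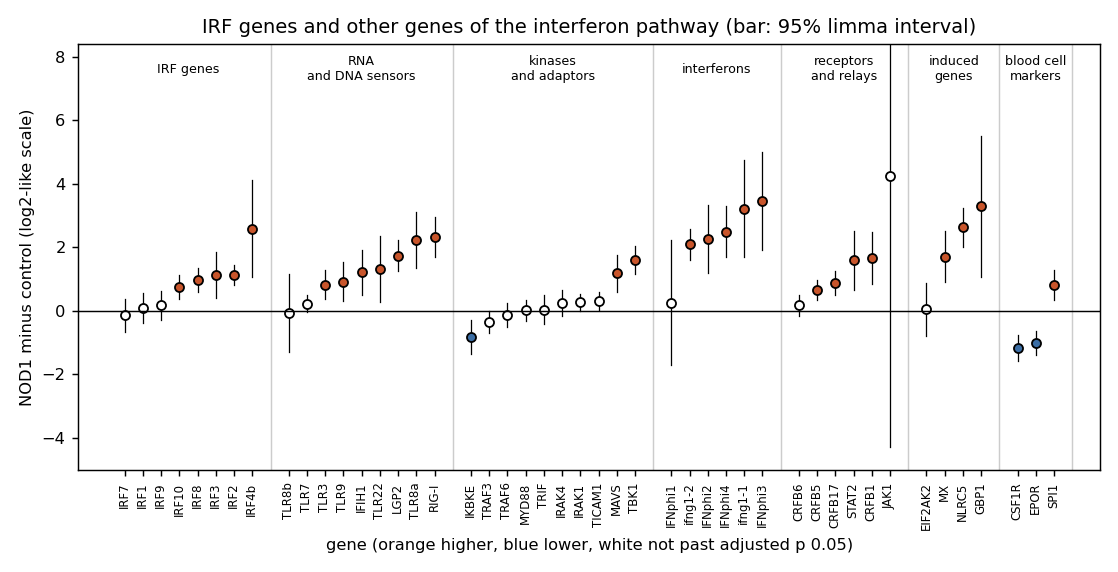
Difference in relative level, NOD1 minus control on the log2-like scale, for the tested IRF genes, the pathway genes reported here by role and 3 blood cell markers. Bars are 95% limma intervals, the interval of JAK1 runs past the plot, and orange, blue and white mark higher, lower and not passed. The IRF genes reach from -0.14 (IRF7) to 2.59 (IRF4b), with 5 called higher on this scaling (IRF3 and MX turn below 0 with quantile and cyclic loess scaling), while interferons reach 3.46.

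Each IRF gene was also matched to the plate gene whose pattern over the 6 plates was nearest, by the root mean square difference of levels centred on each gene's own mean, among 305 other genes. IRF2 lay nearest to the cytokine gene IL15 at 0.0666 cycles, with a difference for IL15 of 1.12. IRF8 lay nearest to the receptor chain CRFB17 at 0.137, IRF10 to IL13RA1 at 0.132 and IRF3 to the nuclear receptor NR2C2 at 0.182. IRF9 lay nearest to BNIP3L at 0.0711, IRF1 to TRIF at 0.0762 and IRF7 to STAM at 0.126. IRF4b lay nearest to the type II interferon gene ifng1-1, but only at 0.440, and IRF4a to SIGIRR at 0.637. Within the family IRF1 and IRF9 were each other's nearest member at 0.168, and IRF8 and IRF10 likewise at 0.231. These distances describe 6 plates that share a reference scale and were not tested.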

How the data were processed

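Threshold cycles (Ct) of 326 gene wells were read on 6 SYBR Green plates, 1 per replicate, with SDS 2.3, per the file headers. The deposited Ct values were raw. A second deposited table held, per the file headers, a group delta Ct on a log2-like scale, and the fold ratio and p-value that the authors gave each gene. Its delta Ct equalled the values computed here to within 1e-05 cycles.

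Ct above 35 or undetermined was set to 35. The relative level was the reference mean Ct (ACTB, GAPDH, Tuba1) minus the gene's Ct. A gene had to be under 35 on every plate of 1 group or both, which kept 319 genes and dropped 7, IRF4a among them. A two-sided limma test (version 3.58.1, R 4.3.3, moderated by eBayes) compared the groups, adjusted by Benjamini-Hochberg over the 319 genes, with a threshold of 0.05. Errors are SDs over 3 plates for levels and limma SEs for differences. Pairs used pooled SEs, t-based intervals and exact permutation tests. Precision rests on 3 plates per group. The fit was tested on simulated data.

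The 9 members, the pathway and marker lists and the pairs were chosen with earlier results of these data known. Named genes are the members, the nearest gene to each, and in each pathway role those past the threshold, at most the 3 of largest difference; MYD88, TRAF6, TRAF3, IFNphi1 and JAK1 were added after their values were seen. Some genes that this rule covers are not reported here. Symbols are the plate's. In RefSeq names (GRCz12tu), 7 members matched by accession, 1 by symbol and 1 by synonym. IRF1 matched irf1a by accession. IRF2 matched irf2b by synonym alone, its accession having found no match, so that name is less certain. No sequences were used here.

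Alternatives covered 10 other scalings, the ceiling, the filter, the deposited p-values, the replicate block, run day and leaving out each plate. Same-numbered plates did not deviate together in every pair (correlations 0.113, 0.0315 and -0.0218), so the number was not taken as a pairing.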

Additional observations from a re-analysis of the deposited data

How the results depend on the processing

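On the reference gene scale 5 IRF genes were higher and 0 lower. The count of higher genes was 2 (global mean), 2 (global median), 1 (quantile), 1 (cyclic loess), 2 (raw Ct) and 3 (deposited p-values), and 3 to 5 on leaving out 1 plate. The count of lower genes was 3, 1, 2, 2 and 3 under the first 5 of these settings and 0 on leaving out any 1 plate. The cause was not tested. With B2M added or a single reference gene the counts stayed at 5 and 0 (plate shares 32% to 39.8% higher and 8.15% to 22.6% lower). With 18S rRNA added they were 7 and 0, where 61.1% of the plate was higher and 5.64% lower. IRF1 turned to -0.52 (global mean), -0.39 (global median), -0.86 (quantile), -0.82 (cyclic loess), -0.095 (ACTB alone) and -0.57 (raw Ct), and ran from -0.059 to 0.25 on leaving out 1 plate. IRF9 turned to -0.43 (global mean), -0.30 (global median), -0.066 (quantile), -0.0079 (ACTB alone) and -0.48 (raw Ct). IRF3 turned to -0.19 (quantile) and -0.078 (cyclic loess), IRF7 to 0.35 (18S rRNA added) and 0.071 (GAPDH alone), and IRF4a ran from -0.21 to 0.78 on leaving out 1 plate. The alternative that left out both plates with IRF4a over 35 cycles was chosen after seeing the data.

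With the replicate block 4 IRF genes were higher and 0 lower, IRF3 being lost at an adjusted p of 0.0540, and 111 plate genes were higher and 40 lower. With run day as a random block the IRF counts were 5 and 0, where 44.2% of the plate was higher and 22.3% lower. But run days lie within groups, so this block cannot adjust for run day, and its fitted correlation of -0.335 narrows the errors. The authors' deposited p-values, adjusted here, passed for IRF2 (0.00716), IRF8 (0.0128) and IRF10 (0.0219) and not for IRF4b (0.0519) or IRF3 (0.0578). Over the plate these p-values passed for 31.9% of the genes as higher and 13.2% as lower.

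Over the plate, 118 genes were higher and 49 lower. The higher count was 76 (global mean), 59 (quantile), 66 (cyclic loess), 71 (raw Ct) and 195 (18S rRNA added), and 96 to 113 on leaving out 1 plate. The lower count was 140 (global mean), 113 (global median), 78 (quantile), 134 (raw Ct), 18 (18S rRNA added) and 26 (GAPDH alone), and 31 to 45 on leaving out 1 plate. The median difference of all genes was 0.32 and became -0.29 (global mean), -0.16 (global median), -0.091 (quantile), -0.025 (cyclic loess) and -0.34 (raw Ct). Of the 37 pathway genes 22 were higher and 1 lower. Higher were 11 with quantile and 12 with raw Ct, and 17 to 22 on leaving out 1 plate. Lower were 9 (global mean), 4 (global median), 3 (quantile), 2 (cyclic loess), 2 (ACTB alone), 2 (run day), 7 (raw Ct), 0 (18S rRNA added) and 0 (GAPDH alone), and 0 to 1 on leaving out 1 plate. Late Ct limits IRF4a, and 3 plates per group limit every interval.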

Other observations

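Other wells with a symbol starting with IRF were outside the members, and none of those given here passed the limma test. IRF5 was 0.18 ± 0.17 (SE, n = 3 per group) higher in NOD1 embryos (limma adjusted p = 0.400). IRF11, named irf1b in RefSeq and so a paralog of IRF1, gave 0.70 ± 0.52 (0.299), with a control SD of 0.962 that was larger than that of IRF1, 0.160. The IRF2-binding proteins IRF2BP1, IRF2BP2a and IRF2BP2b, which are cofactors and not IRF proteins, gave -0.42 ± 0.24 (0.190), 0.012 ± 0.11 (0.937) and 0.14 ± 0.12 (0.373). For each of these genes the values overlapped between control and NOD1 plates. These values were read from the same fit and compared with nothing further.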
